A study of Mus musculus with 2 samples.

Results

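Tubulin isotypes were examined in mouse T cell blasts by microarray. The isotypes were chosen by name, as 9 listed tubulin genes, and each was measured by the probe sets annotated to its symbol alone. Of the 9 genes, 7 had such a probe set, 12 probe sets in all, out of 18193 genes named in this way on the array. Tuba1b and Tuba1c had none, because every probe set that names them also names a predicted gene. The rule itself uses no measured value.

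The cells were 5cc7 T cells, which carry a receptor specific for moth cytochrome c. By their labels they had been stimulated in culture with the MCC peptide, and polyadenylated RNA was taken at day 5, when the cells were blasts. Complementary RNA labelled with biotin was hybridised to 2 Affymetrix mouse 430 2.0 arrays, called set 2 and set 1 here after their titles. The arrays form 1 group with no resting, untreated or time-matched cells, and the labels give no strain, age or sex. The descriptions call both arrays experiment 1 of 2 and the design text says that the arrays were hybridised in parallel, which leaves a purely technical spread between them possible, and no test between groups was possible.

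Tubulins are the subunits of microtubules. An alpha and a beta tubulin join into a dimer, dimers add end to end into filaments, and gamma tubulin forms the ring from which a filament grows. Mammals make several alpha and beta isotypes from separate genes, which differ most in the acidic tail at the end of the protein. In T cells, microtubules build the mitotic spindle and, when a target cell is met, carry the centrosome and its vesicles to the contact site.

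Values are the deposited intensities on a linear scale. A background bound was taken from 59 probe sets for 41 genes that mark kidney, liver, pancreas or eye, as the 95th percentile of their intensities, and came to 109.06 on set 2 and 88.53 on set 1. Probe sets higher than the bound on set 2 as well as on set 1 are called above background. By this rule 26.4% of all 45037 probe sets and 36.1% of the named genes were above background, a gene being called when at least 1 of its probe sets was. The bound rested on pancreas genes. The 4 brightest probe sets of the list were those of the trypsin gene Prss2 on set 1, and on set 2 they were 3 of Prss2 and that of the elastase gene Cela1, at 108.8. In the RefSeq gene table the next gene after Prss2 is Trbd1, a segment of the T cell receptor beta locus, and the part this position plays in its intensity was not tested. Without the pancreas genes, a choice made after the data were seen, the bounds were 55.1 on set 2 and 51.6 on set 1. In a second list, of genes that mark other tissues, 3 of 32 measured genes exceeded the bounds of 109.06 and 88.53. These were Tff1 at 442.9 on set 2 and 456.9 on set 1, Tg at 418.3 and 444.8, and Pomc at 117.8 and 107.3. Readings of that height were thus also met in genes not listed for T cells.

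Of the 7 measured isotypes, 3 were above background, the beta tubulin Tubb5 and the alpha tubulins Tuba1a and Tuba4a. The other 4, the beta tubulins Tubb2a, Tubb3 and Tubb6 and the gamma tubulin Tubg1, were not. The share is 3 of 7 against 36.1% of all named genes, so the count by itself says little about tubulins. Of the 12 probe sets, 5 were above background. Probes differ in how strongly they bind, so no order of abundance between isotypes can be drawn from these values, and each is set only against the bound. Nor can a reading from a whole culture tell fewer cells of a type from less RNA per cell.

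The stretch of 250 bases before the annotated start is shown for Tubb5 and Tuba1a, which were above background, and for Tubb3, which was not, because these genes differ in detection. The sequences are those of RefSeq for GRCm38.p6, read 5′ to 3′ on the strand of the gene. Capitals mark TATAA (the core of the TATA box), CCAAT (the box of that name) and GGGCGG (the GC box), on either strand.
Tubb5, chr17:35838302-35838551, minus strand: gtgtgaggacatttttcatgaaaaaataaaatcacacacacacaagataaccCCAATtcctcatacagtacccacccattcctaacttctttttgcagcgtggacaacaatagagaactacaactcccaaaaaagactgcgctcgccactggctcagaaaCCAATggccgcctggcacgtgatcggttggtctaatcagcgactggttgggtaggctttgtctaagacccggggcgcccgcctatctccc
Tuba1a, chr15:98953502-98953751, minus strand: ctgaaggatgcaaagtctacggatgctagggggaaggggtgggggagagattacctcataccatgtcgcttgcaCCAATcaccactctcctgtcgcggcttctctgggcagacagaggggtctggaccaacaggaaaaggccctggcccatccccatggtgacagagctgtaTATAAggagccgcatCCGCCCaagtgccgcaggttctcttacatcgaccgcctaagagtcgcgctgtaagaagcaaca
Tubb3, chr8:123411303-123411552, plus strand: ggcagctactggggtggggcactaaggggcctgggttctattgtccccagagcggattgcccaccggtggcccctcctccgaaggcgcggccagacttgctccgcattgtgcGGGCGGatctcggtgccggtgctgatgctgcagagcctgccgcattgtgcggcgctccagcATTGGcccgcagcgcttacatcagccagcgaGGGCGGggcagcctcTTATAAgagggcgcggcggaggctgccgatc

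The Tubb5 stretch held CCAAT at 2 places and neither of the other motifs. The Tuba1a stretch held each motif once. In the Tubb3 stretch TATAA was found 2 times, as overlapping matches on the 2 strands, GGGCGG 2 times and CCAAT once. Of the 32851 such stretches used here, 22.8% held TATAA, 33.8% CCAAT and 32.7% GGGCGG. The stretches were filtered by chromosome before these counts. No stretch was used for Tubb6 or Tubg1, and their absence is not ascribed to the filter here. A stretch was used for 7 of the 9 isotypes. TATAA was also in that of Tubb2a and in none of those of Tuba1b, Tuba1c and Tuba4a. GGGCGG was in those of Tuba1b, Tuba4a and Tubb2a, and CCAAT in that of Tuba1c. A link between any of the motifs and detection was not tested. These matches describe letters in a window and not sites in use.

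Tubb5, the broadly expressed beta tubulin of dividing cells, was measured by 2 probe sets. The probe set 1416256_a_at read 2766.9 on set 2 and 2928.0 on set 1, and 1455719_at read 2348.8 and 2444.8 in the same order. Their means were 2847 ± 114 and 2397 ± 67.9 (SD, n = 2 arrays). Both exceeded over 99% of the probe sets of either array. The 2 probe sets of Tubb5 therefore gave the same call.

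Tuba1a, an alpha tubulin best known from developing neurons, was measured alone by 1 probe set, 1418884_x_at. It read 1779.4 on set 2 and 1602.0 on set 1, a mean of 1691 ± 125 (SD, n = 2 arrays), and exceeded 98.7% and 98.6% of the probe sets of these arrays. The ending _x_at is the manufacturer's mark for a probe set in which some probes may match other transcripts. A further probe set, 1433584_at, which names Tuba1a together with Gm6682, read 58.6 and 49.2 and was not above background. Probe sets that name Tuba1a thus lay on both sides of the bound.

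Tuba4a, an alpha tubulin abundant in platelets, muscle and brain, was measured by 3 probe sets that did not give the same call. The probe set 1417373_a_at read 997.3 on set 2 and 1007.1 on set 1, a mean of 1002 ± 6.93 (SD, n = 2 arrays). The probe set 1417374_at read 392.2 and 363.9, a mean of 378 ± 20.0. The probe set 1417375_at read 8.5 and 12.1 and lay below the median of all probe sets, 37.9 on set 2 and 36.4 on set 1. The call for Tuba4a therefore rested on 2 of 3 probe sets.

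Platelet and erythroid markers were above background in 0 of 7 cases. The summed intensity of these 7 markers, each by its brightest probe set, was 215 on set 2 and 171 on set 1. The platelet integrin gene Itga2b was the highest at 93.6 and 67.2, above the bounds taken without the pancreas genes, and the others were Pf4, Ppbp, Gp9, Hba-a1, Klf1 and, lowest, the erythroid gene Alas2 at 1.3 and 1.4. Their part in the Tuba4a readings was not tested.

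Tuba1b and Tuba1c, broadly expressed alpha tubulins whose genes lie on either side of Tuba1a with no other protein-coding gene between, could be followed only through probe sets with several symbols. The probe set 1423846_x_at, annotated to Tuba1b and Gm5620 together, read 3373.6 on set 2 and 3285.9 on set 1. The probe sets 1448232_x_at and 1416128_at, annotated to Tuba1c and Gm6682, read 398.7 and 149.2 on set 2 and 387.1 and 129.6 on set 1. All 3 were above background, but none was assigned to a gene here and none enters the count of isotypes.

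Tubb3, the beta tubulin used as a marker of neurons, was not above background. Its probe set 1415978_at read 10 on set 2 and 13.8 on set 1, a mean of 11.9 ± 2.69 (SD, n = 2 arrays), and 22.6% and 27.9% of the probe sets of these arrays read lower. Tubb2a, a beta tubulin prominent in brain, read 37.0 and 35.7 with 1427347_s_at and 16.5 and 19.9 with 1427838_at. Both Tubb2a probe sets were therefore below the median of either array. Of 12 neuron markers fixed as a list, 0 were above background, and their summed intensity was 312 on set 2 and 340 on set 1. By mean intensity, Rbfox3 was the highest of them at 53.3 and 68.1, and Nefm the lowest at 1.8 and 0.8.

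Tubb6 and Tubg1 lay close enough to the bound that the call depended on how it was set. Tubb6, a broadly expressed minor beta tubulin, read 66.8 on set 2 and 73.0 on set 1 with 1416431_at, a mean of 69.9 ± 4.38 (SD, n = 2 arrays). With 1446353_at it read 25.8 and 35.4. Tubg1, the main gamma tubulin of somatic cells, read 74.4 and 53.5 with its probe set 1417144_at, a mean of 64.0 ± 14.8. Neither reached the bound on either array. With the bounds taken without the pancreas genes both were called, which raised the count of isotypes above background to 5 of 7, while 47.9% of all named genes were then called.

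**Figure D1:**
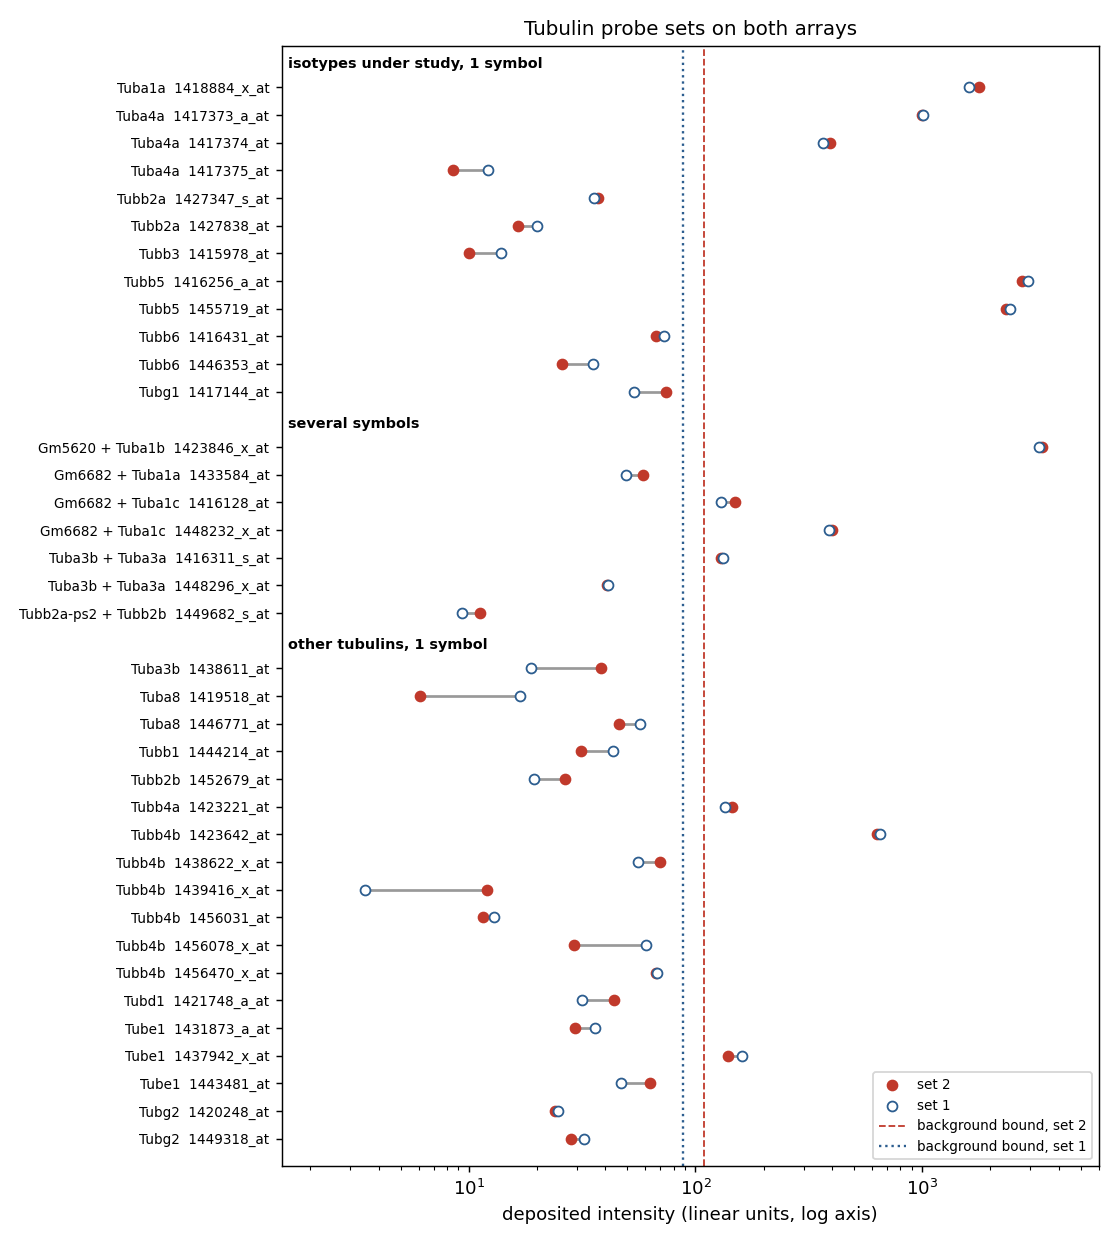
Deposited intensity (log axis) of tubulin probe sets on set 2 (filled) and set 1 (open), each row 1 probe set, with the background bound of each array as a vertical line. Tubb5, Tuba1a and 2 probe sets of Tuba4a lie right of both bounds, while every probe set of Tubb2a, Tubb3, Tubb6 and Tubg1 lies left of them.

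The other tubulin genes were above background in 3 of 9 cases, against 36.1% of all named genes, so this count by itself says little about them. Tubb4b, a beta tubulin of many tissues and of cilia, read 635.4 on set 2 and 653.9 on set 1 with 1423642_at, but this was the single probe set of its 6 above background. Tubb4a, a beta tubulin of brain, read 145.4 and 134.7. Tube1, an epsilon tubulin needed for stable centrioles, read 139.6 and 161.2 with 1437942_x_at, the single probe set of its 3 above background. As for Tuba1a, the ending _x_at marks probes that may match other transcripts. The other 6 were Tuba3b, Tuba8, Tubb1, Tubb2b, Tubd1 and Tubg2, and their brightest probe sets read from 26.7 to 46.1 on set 2 and from 18.8 to 57.0 on set 1. Among them, Tubb1 is the beta tubulin of platelets and Tubg2 the second gamma tubulin, neighbour of Tubg1 in the genome. Of the 11 listed, Tuba3a and Tubal3 had no probe set of their own.

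The arrays gave nearly the same readings for the tubulins that were above background. Differences are the log2 intensity of set 2 minus that of set 1, less their median over all probe sets above background. For the 5 probe sets of Tubb5, Tuba1a and Tuba4a above background they ran from -0.11 to 0.13, 2 positive and 3 negative, with a median of -0.04, where the median over all probe sets above background was 0 and the SD 0.21. None of the 5 was more than 2-fold apart, and neither were the 7 below background. Of all probe sets above background, 0.109% were more than 2-fold apart, and of all probe sets 16.7%, so a count of 0 among 5 is close to that background.

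The size of a difference followed intensity across the array. The SD of the log2 difference was 1.20 for probe sets with a mean intensity under 32, 0.52 between 32 and 64, 0.33 between 64 and 128 and 0.12 above 2048. All 12 isotype probe sets differed by less than the SD of their own intensity class. Tubg1 was the member with the largest difference among those with a mean above 32, at 0.45, close to the SD of 0.52 of its class. For Tubb3 and the dim Tuba4a probe set the differences were -0.49 and -0.53, in a class whose SD was 1.20. Differences of that size are not distinguishable from the spread of readings at such intensity.

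**Figure D2:**
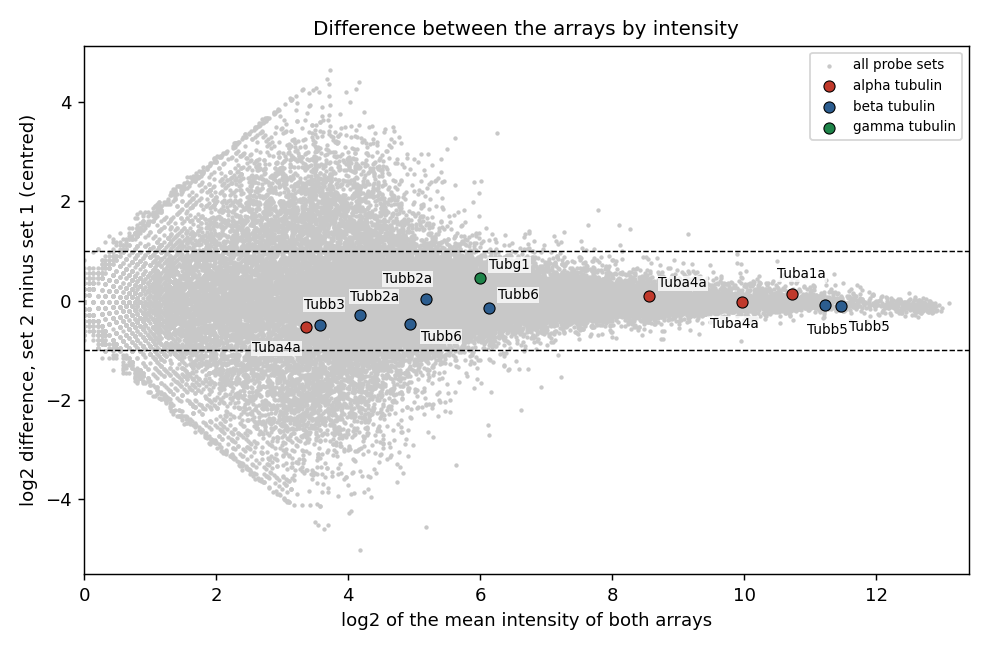
Centred log2 difference between the arrays (set 2 minus set 1) against the log2 mean intensity, for all probe sets (grey) and the 12 isotype probe sets (coloured by tubulin class). Dashed lines mark 2-fold, and all 12 isotype probe sets lie between them.

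Genes that fold tubulin were above background in 22 of 22 cases, against 36.1% of all named genes. New tubulin chains are folded by the CCT chaperonin ring, to which prefoldin hands them, and are then paired by the tubulin cofactors. The chaperonin genes Cct2, Cct4, Tcp1 and Cct6a read 2911.3, 1872.5, 1769.0 and 1784.0 on set 2 and 3035.4, 1895.1, 1863.8 and 1544.8 on set 1. The prefoldin gene Pfdn5 read 1667.7 and 1640.2 by the brightest of its 5 probe sets, of which 2 were above background. The 9 measured genes linked to the decay of tubulin messages when free tubulin is in excess were also all above background. Among these, the deadenylase gene Cnot6l read 1376.0 and 1453.5, and Cnot6, Cnot7, Cnot2 and Cnot8 read from 335.8 to 707.5 on set 2 and from 312.0 to 667.0 on set 1. Ttc5, which recognises the start of the new tubulin chain, was named after its value was seen and read 134.4 and 116.5. With a gene's level taken as the median of its probe sets, 19 of 22 folding genes and 6 of 9 message decay genes were above background. By that measure 27.6% of all named genes were.

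Genes of the gamma tubulin ring and its recruitment were above background in 13 of 19 cases, against 36.1% of all named genes. With a gene's level taken as the median of its probe sets, 10 of 19 were, against 27.6% of all named genes. The ring subunit gene Tubgcp4 read 317.6 on set 2 and 310.3 on set 1, the small ring proteins Mzt1 and Mzt2 read 416.6 and 261.1 on set 2 and 368.8 and 285.0 on set 1, and the centrosome scaffold Pcnt read 282.6 and 284.9. Haus3, of the augmin complex that branches spindle microtubules, read 541.3 and 562.5. The 6 not above background were Tubgcp6, Cdk5rap2, Haus5, Haus6, Haus7 and Haus8, with brightest readings of 30.9 to 88.1 on set 2 and 42.8 to 88.6 on set 1. Haus8 exceeded the bound on set 1 alone.

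Enzymes that modify the tubulin tail or acetylate the filament were above background in 7 of 22 cases. Of all named genes 36.1% were, so this count by itself says little about these enzymes. The deacetylase gene Sirt2 read 447.5 on set 2 and 450.1 on set 1. Svbp, the partner of the vasohibins that remove the last tyrosine of alpha tubulin, read 185.8 and 199.8, and Ttll12 read 172.1 and 180.7. Agbl5 and Agtpbp1, which trim glutamates from the tail, read 145.6 and 116.6 on set 2 and 124.1 and 119.8 on set 1. Named after their values were seen, Ttl, which puts the tyrosine back, read 66.5 and 53.5, the deacetylase gene Hdac6 read 93.1 and 62.4 and the acetyltransferase gene Atat1 read 40.7 and 32.4, none above background. With the bounds taken without the pancreas genes, 11 of 22 were called against 47.9% of all named genes, and Ttl and Hdac6 were among the 4 gained.

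Genes that bind, sever or disassemble microtubules were above background in 16 of 26 cases, against 36.1% of all named genes. With a gene's level taken as the median of its probe sets, 8 of 26 were, near the 27.6% of all named genes. Stmn1, or stathmin, which holds free tubulin dimers, read 1344.5 on set 2 and 1424.7 on set 1 by the brighter of its 2 probe sets, the other not being above background. The plus-end gene Mapre1 (EB1) read 870.2 and 756.4, and Clip1 411.0 and 431.4. Kif2a, a kinesin that removes dimers from filament ends, and the severing enzyme gene Katna1 read 380.8 and 377.1 on set 2 and 381.1 and 382.8 on set 1. Of the 10 not above background, Stmn2, Stmn3, Stmn4, Map2 and Mapt are known from neurons, and they read from 4.2 to 51.8 on set 2 and from 3.5 to 41.4 on set 1. The other 5 were Mapre3, Clip2, Kif18a, Fign and Katnal1. No probe set above background in these 5 lists was more than 2-fold apart between the arrays.

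**Figure D3:**
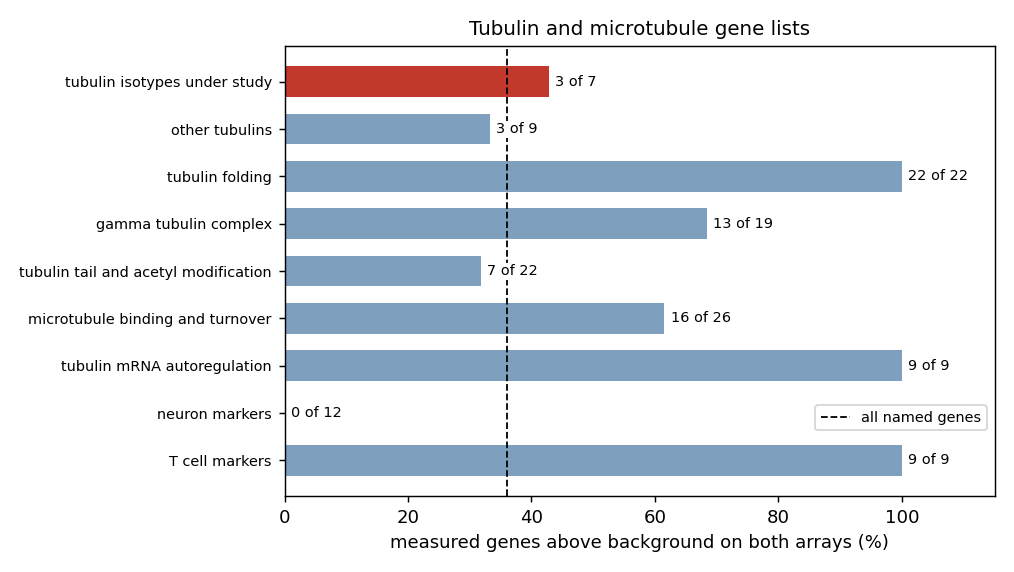
Percentage of the measured genes of each list that were above background on both arrays, with the counts beside the bars and a dashed line at the 36.1% of all named genes. The tubulin isotypes stand at 3 of 7, the folding list at 22 of 22 and the neuron markers at 0 of 12.

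The label of the cells was checked against markers. T cell markers were above background in 9 of 9 measured cases, with Cd3d at 4459.9 on set 2 and 4882.9 on set 1. B cell markers were above background in 3 of 7 cases, against 36.1% of all named genes. The summed intensity of the 7 was 996 on set 2 and 1021 on set 1. The 3 were Ms4a1 at 365.1 on set 2 and 389.7 on set 1, Cd22 at 213.9 and 228.1 and Cd79b at 164.5 and 166.2. The other 4 were Pax5, Ebf1, Cr2 and Cd79a, the last with 98.4 on set 2 and 118.4 on set 1, over the bound on set 1 alone. Macrophage and dendritic markers (Adgre1, Csf1r, Lyz2, C1qa, C1qb, Cd14, Itgax, Mrc1, Marco and Cd68) reached 0 of 10, with a summed intensity of 480 on set 2 and 305 on set 1. The probe set of Csf1r with the highest mean read 146.7 and 57.3, over the bound on set 2 alone, and another of its probe sets was over the bound on set 1 alone. Fibroblast and endothelial markers (Col1a1, Col1a2, Col3a1, Dcn, Lum, Pdgfra, Cdh5, Kdr, Tek and Vwf) reached 0 of 10, with sums of 323 and 321. With the bounds taken without the pancreas genes, the B cell, macrophage and fibroblast lists had 4, 1 and 2 genes above background. Whether these cells have a part in any tubulin value was not tested.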

How the data were processed

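Intensity values of 2 arrays were used as the authors deposited them, 1 per probe set and array on a linear scale. They ran from 0 to 8860.2, from which the linear scale was inferred. How they were background corrected, summarised and scaled is not given in the sources used here. After 64 control probe sets were left out, 34945 of 45037 probe sets had 1 gene symbol in GEO's platform annotation, 932 had several and 9160 are unnamed here. By Entrez identifier 34741 matched the RefSeq table of GRCm38.p6, and 0 symbols changed.

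The members, lists, bound and tests were chosen with earlier results of these data known. Intensities under 1 were set to 1 before log2, and the centring shift was 0.02. Every isotype and other tubulin is given, and of each further list up to 5 of the brightest genes above background and all those not above where there were 10 or fewer. The neuron markers Nefm and Rbfox3 were named outside this rule, after their values were seen. A gene's level is that of its brightest probe set. Other probe sets of a gene named from the further lists could fail to be above background. Those above were 2 of 5 for Clip1, 1 of 3 each for Agbl5 and Agtpbp1 and 1 of 2 each for Ttll12 and Ttc5, for example. No gene of like pattern is named, since 2 arrays give no pattern. A planned comparison of protein tails was not made. The number of arrays limits the precision. Python 3.11.15, numpy 2.4.6, pandas 2.3.3 and matplotlib 3.10.9 were used, and the calculation was checked on data made with known differences.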

Additional observations from a re-analysis of the deposited data

How the results depend on the processing

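Tubb5, Tuba1a and Tuba4a were above background under all 7 alternatives to the bound, the arrays used and the probe set summary. Most of these could not have removed a gene. The 90th percentile, the median of all probe sets and the list without pancreas genes lowered the bound on both arrays. Using 1 array alone only loosens the call. The second off-tissue list raised the bound on set 1 alone, to 102.06, and gave 104.08 on set 2. The median over probe sets could not alter Tuba1a, which has 1 probe set. The count of isotypes was 5 of 7 with the median of all probe sets as the bound, where 55.4% of all named genes were called, and also with the off-tissue list without its pancreas genes (47.9%), the second chosen after the data were seen, both adding Tubb6 and Tubg1. It was 4 with the 90th percentile (47.0%), which added Tubb6. The count of tail and acetyl modification genes was 13 with the median of all probe sets as the bound and 11 without the pancreas genes. With a gene's level taken as the median of its probe sets, where 27.6% of all named genes were called, it was 3. That of other tubulins was then 1 and that of microtubule binding genes was 8. The other counts of isotypes, tubulins and microtubule lists stayed within 1.5 times of those reported. Of the marker counts, whose alternatives were added after the data were seen, that of T cells stayed at 9. With the median of all probe sets as the bound, the B cell, macrophage, neuron, platelet and fibroblast counts were 6, 4, 2, 1 and 3. With the 90th percentile, and also without the pancreas genes, they were 4, 1, 0, 1 and 2. Those of B cells and macrophages were 3 and 1 on set 2 alone and 4 and 1 on set 1 alone. The median difference of the isotypes, -0.04 as reported, ran from -0.09 with no filter on low values to -0.01 without centring, and 0 of their probe sets were over 2-fold apart under the 4 alternatives run. No paired analysis was possible because the arrays form 1 group. With 2 arrays, readings below about 64 have too wide a spread to compare.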
